A study of Mus musculus with 9 samples.

Results

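The acyl-CoA synthetase genes were followed in 3T3-L1 cells, a wild-type clonal mouse line of adipocyte precursors. The family was taken by symbol as 10 genes out of 28965 in the table: Acsl1, Acsl3, Acsl4, Acsl5, Acsl6, Acsbg1, Acss1, Acss2, Acsf2 and Acsf3. Of these, 9 had a row, and Acsl6 was not analysed here. All cells had stood at confluence and then received 0.1 µg/mL insulin, 30 µg/mL isobutylmethylxanthine and 0.1 µg/mL dexamethasone for 24 h. The MDI group had the albumin vehicle on top of this cocktail, the OA group 100 µM oleic acid on albumin, and the OA_T0 group 100 µM oleic acid plus T0901317 at 5 µM. T0901317 activates the liver X receptors (LXR), nuclear receptors that sense sterols. Each group had 3 libraries of poly(A) RNA. No group had the agonist without oleic acid, so a change between OA and OA_T0 was measured only in cells given the acid. The labels do not say whether the libraries of a group came from separate cultures, so p-values measure the spread between these libraries, which may be technical.

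Acyl-CoA synthetases join a fatty acid to coenzyme A at the cost of ATP, which traps the acid in the cell and readies it for oxidation, for triglyceride and phospholipid synthesis or for protein acylation. The ACSL enzymes act on long-chain acids such as oleate and sit on different membranes: ACSL1 is the main form of fat tissue, ACSL3 lies on the endoplasmic reticulum and on nascent lipid droplets, ACSL4 prefers arachidonate, and ACSL5 is found on mitochondria and endoplasmic reticulum. The bubblegum enzyme ACSBG1 also takes long and very long chains and is best known from brain, adrenal gland and gonads. ACSS1 and ACSS2 make acetyl-CoA from acetate, in mitochondria and in the cytosol and nucleus respectively. ACSF2 takes medium chains, and ACSF3 makes malonyl-CoA in mitochondria.

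The libraries differed in depth, estimated at 18.0 M to 59.9 M fragments, with OA_T0 replicate 3 the shallowest and MDI replicate 1 the deepest. The rRNA gene CT010467.1 took 0.649% of the signal in OA replicate 1 and 3.06% in OA_T0 replicate 3, against 4.40% to 5.97% in the other libraries. Over 5 histone genes the mean log2 difference from MDI was highest in OA_T0 replicate 3, at 0.33, and lowest in OA replicate 3, at -0.78. It was -0.61 in OA replicate 1, -0.55 in OA_T0 replicate 2 and between -0.19 and 0.19 in the others. Precursor markers were present, all 9 of them at a mean of at least 10, summing to 114800 to 131100 in MDI, 128200 to 142600 in OA and 116300 to 139200 in OA_T0. Of the adipocyte markers 7 of 8 had a row and 3 reached that mean. Their summed value was 1579 to 1909 in MDI, 3169 to 3901 in OA and 2139 to 2449 in OA_T0, and it came from Fabp4, Pparg and Cebpa, while Adipoq, Plin1, Cidec and Cfd averaged under 3. Of 5 macrophage markers 2 reached a mean of 10, Adgre1 was listed at 0 in all libraries, and the summed value was 34.7 to 46.2 in MDI, 28.9 to 58.9 in OA and 55.5 to 79.8 in OA_T0. Of 4 endothelial markers 0 reached that mean, with sums of 15.8 to 18.9, 13.1 to 18.8 and 13.1 to 20.03. Of 3 epithelial markers 1 had a row, Cdh1, which averaged 0.236. Of 3 skeletal muscle markers 1 had a row, Myog, which was listed at 0.

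The promoter stretches of the members whose RNA changed most are shown because they are of different kinds. The RefSeq table (GRCm38.p6) held a start site for 10 of 10 members, 13 in all. Printed are the 250 bases before the start of Acsl3, on the plus strand at chr1:78657575-78657824, and of Acsbg1, on the minus strand at chr9:54661886-54662135, each read 5′ to 3′ along its gene. Capitals mark the NF-Y box (CCAAT) and the GC box (GGGCGG), on either strand.
Acsl3: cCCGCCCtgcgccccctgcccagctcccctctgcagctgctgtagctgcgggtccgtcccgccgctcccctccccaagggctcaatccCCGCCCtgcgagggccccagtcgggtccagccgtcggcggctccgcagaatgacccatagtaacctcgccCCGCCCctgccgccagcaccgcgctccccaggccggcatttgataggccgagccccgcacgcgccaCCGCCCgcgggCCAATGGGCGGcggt
Acsbg1: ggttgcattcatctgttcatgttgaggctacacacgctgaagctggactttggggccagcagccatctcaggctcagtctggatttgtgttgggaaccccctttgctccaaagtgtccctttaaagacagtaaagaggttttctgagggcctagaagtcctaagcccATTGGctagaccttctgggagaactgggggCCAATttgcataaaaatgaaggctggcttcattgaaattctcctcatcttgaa
The Acsl3 stretch had a GC content of 75.6% and 28 CG pairs, and the Acsbg1 stretch 48.4% and 1, where the median of all 32851 promoters was 52.4% and 6. Acsl3 held 5 GC boxes and 1 NF-Y box, which lay directly before the last GC box, and Acsbg1 held 2 NF-Y boxes and 0 GC boxes. Of all promoters of this length 33.8% held an NF-Y box and 32.7% a GC box. Searches of both strands for the peroxisome proliferator response element (AGGNCANAGGNCA), the LXR element (AGGNCANNNNAGGNCA), the sterol response element (TCACNCCAC) and the receptor half-site (AGGTCA, which may overlap the first 2) found 0 matches in either stretch. Such matches stood in 0.338%, 0.213%, 1.05% and 14.0% of all promoters. Some members with no call had stretches of these kinds too. GC content and CG pairs were 70.8% and 25 for Acsl4, 70.0% and 22 for Acsf2, and 48.4% and 2 for the second Acsl1 stretch. That Acsl1 stretch also held 2 NF-Y boxes, 0 GC boxes and 1 sterol response element. The first stretch of Acsl6, which was not analysed, held 1 LXR element. These letter matches describe the stretch only, and a link between the kind of promoter and a change was not tested.

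Levels between genes were compared per kb of the longest principal transcript in GENCODE M21. Acsl4 and Acsl5 were the most abundant members in MDI, at 829.7 ± 7.32 and 669.5 ± 42.2 normalised counts per kb (mean ± SD, n = 3). Acsl3 followed at 303.7 ± 18.2, Acsl1 at 194.3 ± 9.68, Acsf2 at 128.8 ± 12.9, Acsf3 at 103.2 ± 14.6, Acss2 at 65.7 ± 9.96 and Acsbg1 at 11.8 ± 1.57. Acsf2 and Acsf3 were neighbours in this order whose ranges overlapped, at 116.3 to 142.0 and 94.2 to 120.0. With all annotated exons as the length the order was the same at the top, but Acsf2 passed Acsl1, and Acsbg1 passed Acss2 over the 9 libraries. Acss1 stood at the bottom: it was listed at 0 in 7 of 9 libraries, at 0.900 in MDI replicate 1 and at 1.34 in OA replicate 2, under the floor of 3 fragments (1.35 and 4.03) in both. It was not tested, and 8 members were.

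**Figure D1:**
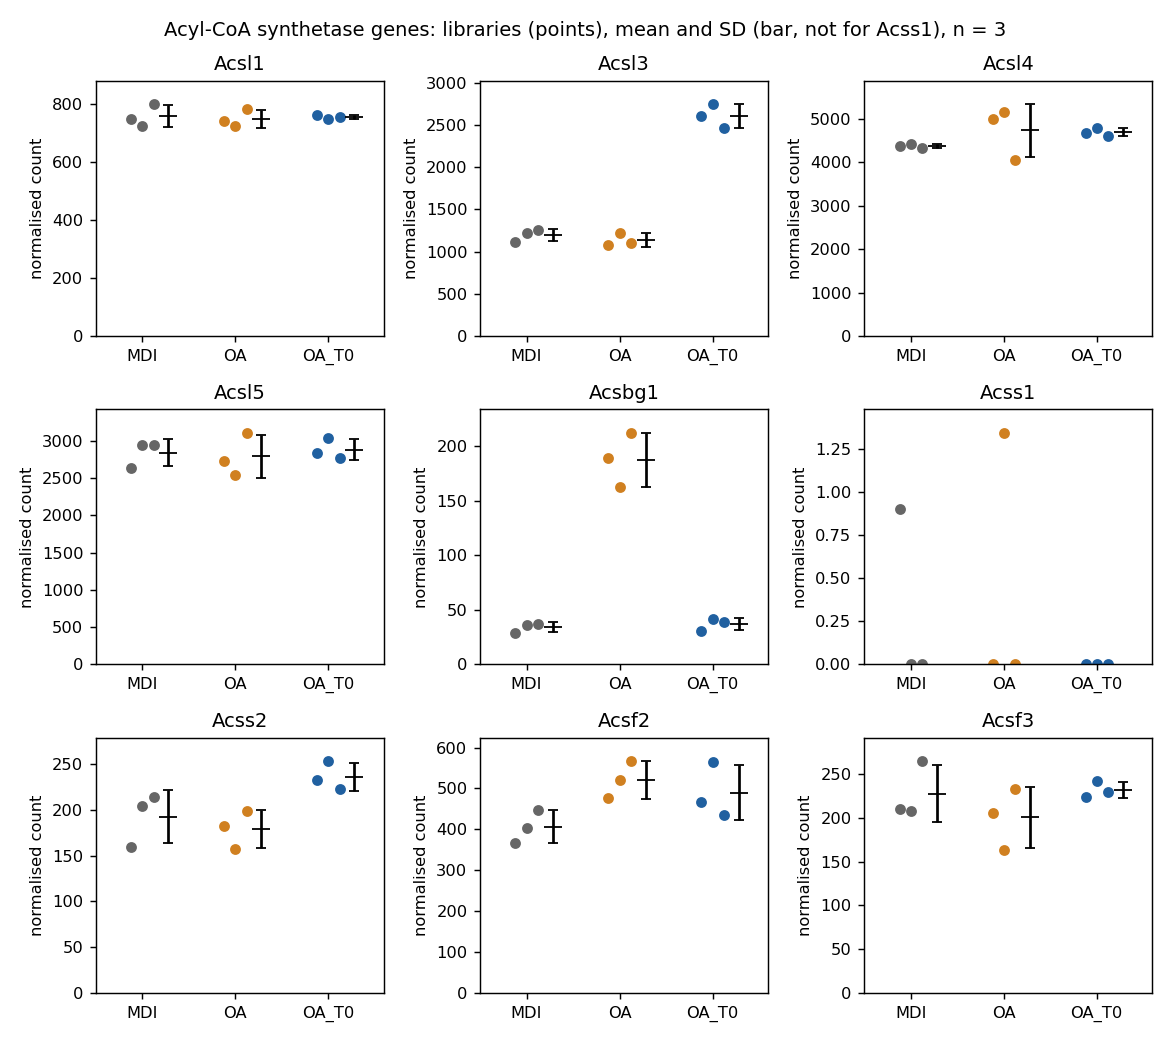
Normalised counts (y axes, from 0) of the 9 measured members in each library, by group (x axes: MDI, OA, OA_T0), with mean and SD of 3 libraries except for Acss1. Acsbg1 stands between 162.3 and 211.7 in OA and at 41.2 or less elsewhere, Acsl3 stands at 2469 or more in OA_T0, and the groups of most other members overlap.

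Oleic acid was set against vehicle to see which synthetases answer the acid. Acsbg1 was the member that rose. Its normalised counts were 28.8, 35.9 and 37.2 in MDI and 189.0, 162.3 and 211.7 in OA. The lowest OA library lay more than 4 times as high as the highest MDI library. The ratio of means was 5.53 and the log2 difference 2.43 (SE 0.20, 95% interval 2.01 to 2.85, limma adjusted p = 2.02e-06). This was the 8th highest log2 difference among 15002 tested genes. The counts behind it were low: among the MDI and OA libraries the lowest held an estimated 33 fragments and the highest 211. Without OA replicate 1 and OA_T0 replicate 3 the log2 difference was 2.42 (adjusted p = 6.81e-06).

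In that comparison 1 of 8 tested members rose, 0 fell and 7 did not pass, where 3.43% of all tested genes were called higher and 3.36% lower. At an unadjusted p under 0.05 limma gave 2 members higher and 0 lower. The share of all tested genes at that threshold was not counted. The groups did not overlap for 2 members, Acsbg1 and Acsf2, against 26.1% of all tested genes. The median log2 difference of the members was -0.02, beside 0.01 over all tested genes.

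Acsf2, the medium-chain enzyme, read 366.8, 404.3 and 447.8 in MDI and 475.8, 520.0 and 566.8 in OA. The OA libraries were all above the MDI libraries, yet the log2 difference of 0.36 (95% interval 0.13 to 0.59) had adjusted p = 0.0643 and did not pass. Its call turned on the libraries and settings used. With all libraries of both groups it passed under quantile normalisation (adjusted p = 0.0422), with equal totals (0.043) and in a fit of only the compared groups (0.0403). It also passed without MDI replicate 3 (adjusted p = 0.0385), OA_T0 replicate 2 (0.0347) or OA_T0 replicate 3 (0.0399), and without OA replicate 1 and OA_T0 replicate 3 together (0.0406).

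The long-chain enzymes showed no call. Acsl1, the main form of fat tissue, read 747.5, 725.3 and 798.8 in MDI and 740.4, 723.2 and 783.1 in OA, with a log2 difference of -0.02 and a 95% interval of -0.16 to 0.13. For Acsl5 the interval was -0.19 to 0.13, and for Acsl3 -0.23 to 0.07. None of the 3 passed, with adjusted p = 0.933 for Acsl1, 0.879 for Acsl5 and 0.586 for Acsl3. Acsl4 read 4383, 4418 and 4341 in MDI and 4995, 5174 and 4052 in OA. OA replicate 3 lay below the MDI libraries and the other OA libraries above them. The log2 difference was 0.11 (adjusted p = 0.472), and without OA replicate 3 it was 0.21 with adjusted p = 0.0372. Acss2 read 159.4, 204.5 and 214.1 in MDI and 182.3, 157.0 and 198.7 in OA, and the groups overlapped (adjusted p = 0.744). Acsf3 read 210.6, 207.8 and 264.8 in MDI and 205.8, 163.7 and 232.8 in OA, also with overlap (adjusted p = 0.496).

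**Figure D2:**
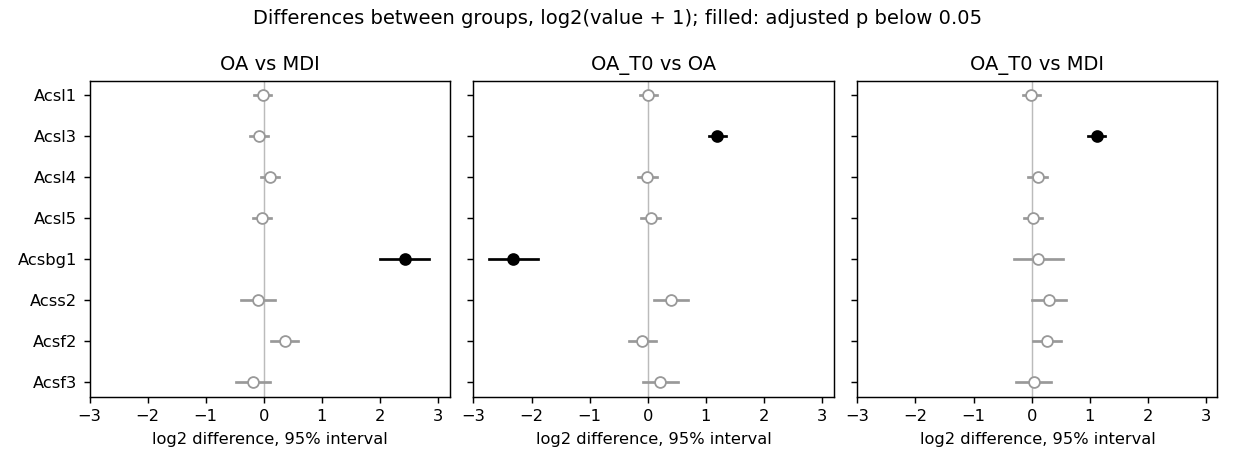
Log2 difference (x axis, on log2(value + 1)) with its 95% interval for the 8 tested members in the 3 comparisons, filled where the adjusted p is below 0.05. Acsbg1 is filled at 2.43 in OA vs MDI and at -2.32 in OA_T0 vs OA, and Acsl3 at 1.20 and 1.12 in the comparisons of OA_T0.

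Adding the agonist to the acid asks which synthetases change with T0901317. Whether a change ran through LXR was not tested. Acsl3 rose and Acsbg1 fell. Acsl3 read 1081, 1226 and 1100 in OA and 2605, 2746 and 2469 in OA_T0. The lowest OA_T0 library was about double the highest OA library. The ratio of means was 2.30 and the log2 difference 1.20 (SE 0.07, 95% interval 1.05 to 1.35, limma adjusted p = 3.61e-08). It was 1.20 also without OA replicate 1 and OA_T0 replicate 3 (adjusted p = 1.57e-07).

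Acsbg1 read 31.0, 41.2 and 38.5 in OA_T0, all far below the OA libraries and within or close to the MDI range. The log2 difference from OA was -2.32 (SE 0.20, 95% interval -2.74 to -1.89, adjusted p = 1.85e-06), the 12th lowest among 15002 tested genes. This comparison and OA vs MDI share the OA libraries, which enter with opposite signs. The log2 difference of OA_T0 from MDI does not use their values, but its interval and p-value do, through the shared spread. For Acsbg1 that difference was 0.12 (95% interval -0.31 to 0.54, limma adjusted p = 0.793).

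Of 8 tested members, 1 rose, 1 fell and 6 did not pass in OA_T0 vs OA, where 8.27% of all tested genes were called higher and 6.84% lower. At an unadjusted p under 0.05 limma gave 2 members higher (Acsl3 and Acss2) and 1 lower, with no count over all tested genes. The groups did not overlap for 3 members, Acsl3, Acsbg1 and Acss2, against 32.1% of all tested genes. The median log2 difference of the members was 0.03, beside -0.00232 over all tested genes. Acss2, the cytosolic acetate enzyme, read 182.3, 157.0 and 198.7 in OA and 232.8, 253.4 and 223.4 in OA_T0. All OA_T0 libraries were higher, with a log2 difference of 0.40 (95% interval 0.11 to 0.69), but adjusted p = 0.0589. It passed without OA replicate 3 (adjusted p = 0.0411) or MDI replicate 1 (0.0422), and with quantile normalisation (0.0426).

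The other members were close together in OA and OA_T0. Acsl1 read 761.5, 749.0 and 753.4 in OA_T0, inside the OA range, with a 95% interval of -0.14 to 0.16 for the log2 difference. Acsl4 read 4689, 4801 and 4615 (interval -0.16 to 0.16) and Acsl5 2836, 3039 and 2764 (interval -0.11 to 0.21). Acsf2 read 468.1, 564.6 and 435.8 (adjusted p = 0.603), and Acsf3 223.5, 242.3 and 229.6 (adjusted p = 0.314).

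Set against vehicle, the combined treatment left 1 of 8 members higher, Acsl3, and 0 lower, where 1.25% of all tested genes were called higher and 1.36% lower. At an unadjusted p under 0.05 limma gave 3 members higher (Acsl3, Acss2 and Acsf2) and 0 lower. The 1.25% and 1.36% are at the adjusted threshold, and the share at the unadjusted one was not counted. The log2 difference of Acsl3 was 1.12 (SE 0.07, adjusted p = 3.1e-07), with MDI libraries at 1119, 1222 and 1257. The groups did not overlap for 3 members, Acsl3, Acsl4 and Acss2, against 23.5% of all tested genes. The median log2 difference of the members was 0.11, beside 0.02 over all tested genes. Acsl4 differed by 0.10 on the log2 scale (adjusted p = 0.492) and Acss2 by 0.30 (adjusted p = 0.25).

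**Figure D3:**
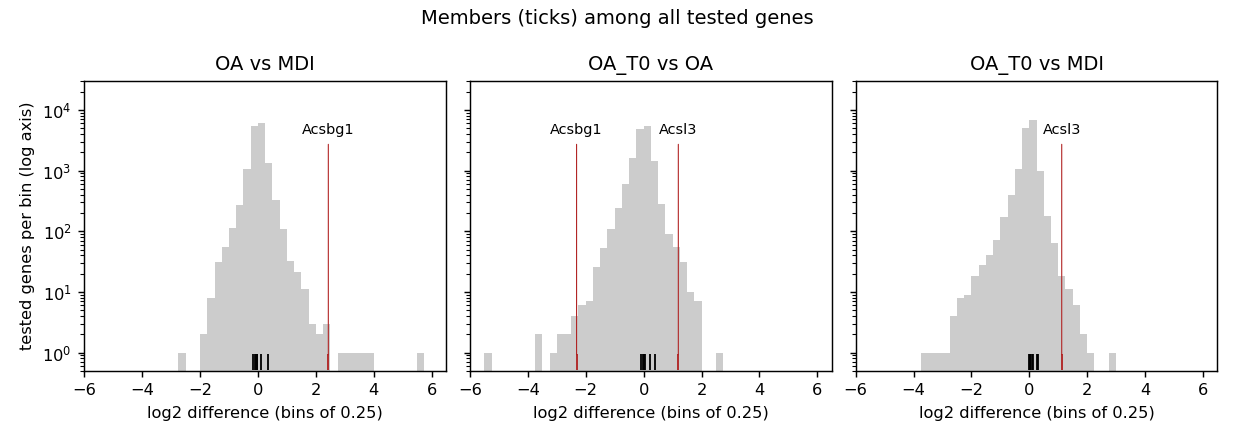
Number of tested genes per bin of log2 difference (y axis, log scale) in the 3 comparisons, with the 8 members as ticks and the called ones named. Acsbg1 lies in the outer tail of both comparisons that use OA, Acsl3 lies among the higher values in both that use OA_T0, and the other members lie near 0.

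The makeup of the long-chain enzymes' RNA shifted with these changes. Over Acsl1, Acsl3, Acsl4, Acsl5 and Acsbg1, the summed level per kb was 2009 ± 63.5 in MDI, 2101 ± 41.7 in OA and 2436 ± 85.7 in OA_T0 (mean ± SD, n = 3). The share of Acsl3 was 15.1% ± 0.445 in MDI, 13.7% ± 0.836 in OA and 27.1% ± 0.508 in OA_T0. In OA_T0 it was close to that of Acsl5, at 27.9% ± 0.422. The share of Acsbg1 was 0.586% ± 0.0606 in MDI, 3.11% ± 0.467 in OA and 0.526% ± 0.0704 in OA_T0. So Acsbg1 remained a small part of this RNA even where it was highest. Acsl4 held the largest share in every group, from 36.6% ± 0.554 in OA_T0 to 42.7% ± 4.63 in OA. A lower share of Acsl4 or Acsl5 in OA_T0 is no fall in level, since shares sum to a whole. These shares depend on the transcript lengths used, and no test was made on them.

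**Figure D4:**
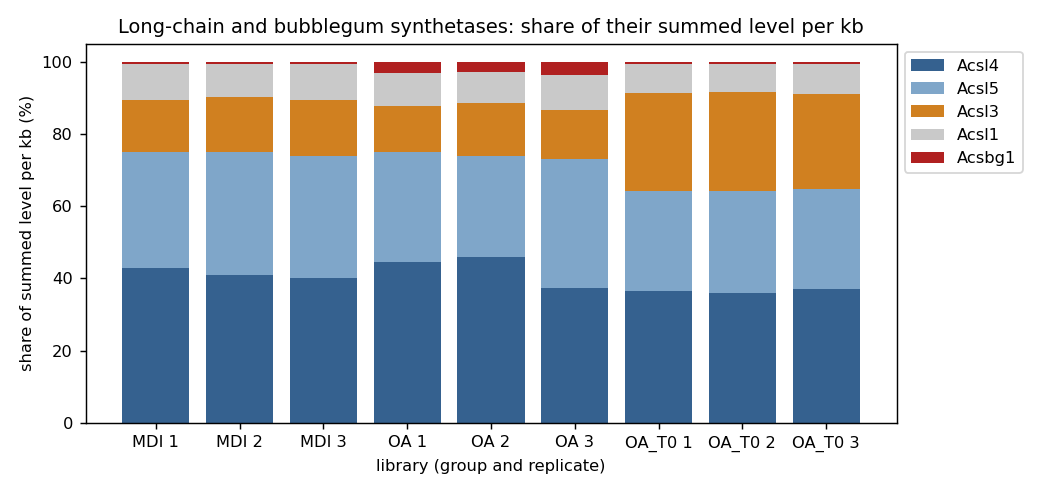
Share (y axis, percent) of each of 5 long-chain and bubblegum synthetases in their summed level per kb, for each library (x axis). Acsl3 takes 26.5% to 27.5% in the OA_T0 libraries and under 16% in the others, and Acsbg1 takes 2.65% to 3.58% in the OA libraries and under 1% in the others.

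Some values of neighbouring genes and cell markers moved with the members. Utp14b, which encodes a factor of ribosome assembly, shares 244 exon bases with Acsl3 on the same strand, 5.60% of the Acsl3 exons. It averaged 230.1 ± 20.9 in OA and 464.2 ± 54.7 in OA_T0 and rose by 1.01 on the log2 scale (adjusted p = 2.26e-05). Acss2 shares exon bases on the opposite strand with Gss, the glutathione synthetase gene, which rose by 0.30 in OA_T0 vs OA (adjusted p = 0.0289), and with Ggt7. Acsl5 overlaps Zdhhc6 in the same way (adjusted p = 0.459 there). The libraries keep strand per the labels, but whether the counting used it is not given in the sources used here, and the part of these neighbours in the results was not tested. In bulk RNA, more cells that hold a transcript and more transcript per cell cannot be told apart. The summed adipocyte markers were higher in OA than in MDI, as Acsbg1 was, while the defining markers Adipoq, Plin1 and Cidec averaged 2.17, 2.58 and 2.40 over all libraries. The sum came from Fabp4, Pparg and Cebpa, and which of them carried its rise in OA is not given here. In OA_T0 the summed adipocyte markers were 2139 to 2449, above the 1579 to 1909 of MDI. Acsbg1 read 31.0 to 41.2 in OA_T0 and 28.8 to 37.2 in MDI. The part of this in the Acsbg1 result was not tested, nor that of the macrophage markers, whose sums in OA_T0 were above those in MDI, in the Acsl3 result. The neural and glial markers Rbfox3 and Sox10 were listed at 0 in all libraries and Gfap averaged 0.818. The summed markers of that list, nearly all from Tubb3, were 111.5 to 118.6 in MDI, 68.4 to 86.1 in OA and 82.4 to 171.0 in OA_T0, lower in OA than in MDI.

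Genes with the profile most like each member were sought by Pearson correlation over the 9 libraries among 10906 genes with a mean of at least 50. Gene models named by a Gm number, a Rik suffix or an accession were left out of the search. Libraries of a group share their treatment, so these values describe likeness and carry no test. Each is also the top of a search over many genes and few libraries, which yields high values by selection, also for members that did not change. For Acsbg1 they were Acaa2, a thiolase of mitochondrial fatty acid oxidation (r = 0.996), and Plin2, a lipid droplet coat protein (r = 0.995). Acaa2 averaged 902.6 ± 72.8 in MDI, 2225 ± 142 in OA and 910.0 ± 80.0 in OA_T0. For Acsl3 they were Mylip, the ubiquitin ligase of the LDL receptor (r = 0.994), and Scd1, the stearoyl-CoA desaturase (r = 0.992). Mylip averaged 423.3 ± 30.2 in MDI, 430.0 ± 25.7 in OA and 1378 ± 124 in OA_T0, a wider step than that of Acsl3. For Acss2 they were Mpnd and Dysf (r = 0.974 and 0.968), for Acsf2 Cdc25b and Ifngr1 (0.989 and 0.985), and for Acsf3 Fam20c and Zbtb9 (0.953 and 0.950). For Acsl1, Acsl4 and Acsl5, whose groups mostly overlapped, they were Kif7 and Naif1 (0.965 and 0.956), Arhgef4 and Cep112 (0.953 and 0.937), and Ykt6 and Psen2 (0.955 and 0.954).

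**Figure D5:**
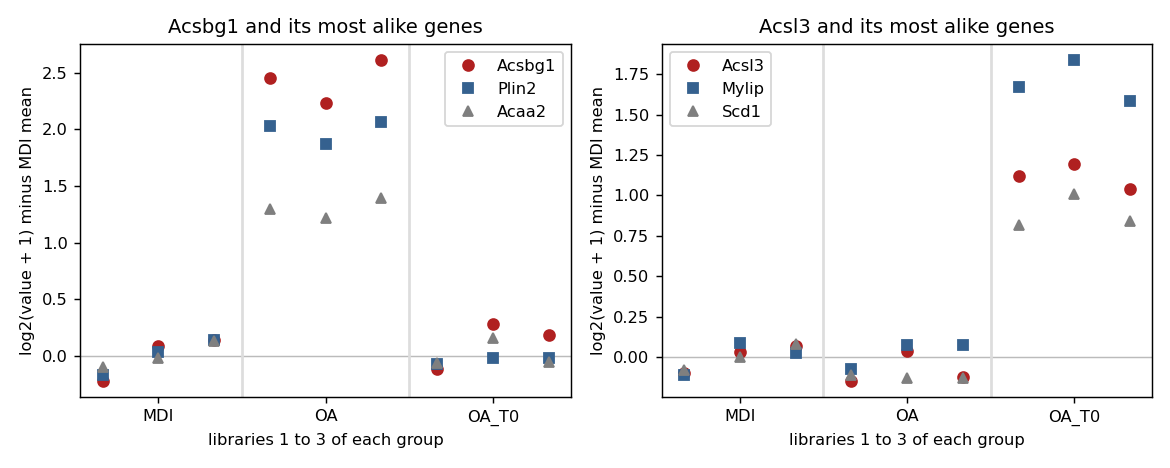
Log2(value + 1) minus the MDI mean (y axis) in each library (x axis, by group) for Acsbg1 with Plin2 and Acaa2, and for Acsl3 with Mylip and Scd1. Acsbg1 and its companions are raised in the 3 OA libraries, and Acsl3 and its companions in the 3 OA_T0 libraries.

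Among other enzymes that make acyl-CoA, Aacs was called in the comparisons of OA_T0. Of 6 tested genes on that list (Aacs, Aasdh, Slc27a1, Slc27a3, Slc27a4 and Slc27a6), 0 rose and 0 fell in OA vs MDI by limma. There 3.43% of all tested genes were called higher and 3.36% lower. At an unadjusted p under 0.05 limma gave 1 higher and 1 lower, with no count over all tested genes. The count of calls lower was 1 when OA replicate 3 was left out, and likewise for OA_T0 replicate 3, quantile normalisation and equal totals. In these settings 414, 639, 616 and 515 of all tested genes were called lower, against 504 as reported. In OA_T0 vs OA 1 rose and 0 fell, where 8.27% of all tested genes were called higher. It was Aacs, which makes acetoacetyl-CoA in the cytosol, from 1901 ± 216 to 3297 ± 386 (log2 difference 0.79, adjusted p = 3.54e-05). It also rose against MDI (0.52, adjusted p = 0.00672), where 1.25% of all tested genes were called higher. That call was lost without MDI replicate 1, without the filter on low values and without the intensity trend. The fatty acid transporters with synthetase activity did not pass in any comparison. Their adjusted p lay between 0.457 (Slc27a1 in OA vs MDI) and 0.994 (Slc27a3 in OA_T0 vs MDI). The median log2 difference of the list was -0.12, 0.17 and 0.06 in OA vs MDI, OA_T0 vs OA and OA_T0 vs MDI, beside 0.01, -0.00232 and 0.02 over all tested genes.

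Proteins that bind acyl-CoA gave 1 call in each comparison. Of 6 tested genes 1 rose and 0 fell in OA vs MDI, 0 rose and 1 fell in OA_T0 vs OA, and 1 rose and 0 fell in OA_T0 vs MDI. Of all tested genes 3.43% were called higher in the first, 6.84% lower in the second and 1.25% higher in the last of these. Dbi, the acyl-CoA binding protein, rose from 1486 ± 109 in MDI to 2168 ± 134 in OA (log2 difference 0.55, adjusted p = 0.000234) and stood at 1999 ± 103 in OA_T0, above MDI by 0.43 (adjusted p = 0.00353), a call lost without the intensity trend. Acbd5, a tether of peroxisomes to the endoplasmic reticulum, fell by 0.28 in OA_T0 vs OA (adjusted p = 0.0181), a call lost without OA replicate 1, OA_T0 replicate 1 or the intensity trend. The count higher there was 0 by limma, where 8.27% of all tested genes were called higher, and 1 without OA replicate 3. It was 1 at an unadjusted p under 0.05 by limma, with no count over all tested genes. The medians were 0.13, -0.06 and 0.13.

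Acyltransferases, which spend the product of these enzymes, went both ways. Of 18 tested genes, 4 rose and 1 fell in OA vs MDI, against 3.43% and 3.36% of all tested genes. The rises with the smallest adjusted p were Cpt1a, which hands the acyl group to carnitine (log2 difference 2.19, adjusted p = 7.98e-11), Lpcat3, a phospholipid acyltransferase (0.73, adjusted p = 5.93e-06), and Agpat3 (0.47, adjusted p = 0.00203). Crot, which makes acylcarnitines in peroxisomes, also rose (0.28, adjusted p = 0.0354), and Soat1, which esterifies cholesterol, fell by 0.27 (adjusted p = 0.0122); both were named after their values were seen. The count lower was 0 without MDI replicate 2 or the intensity trend, and 2 without OA replicate 1, with quantile normalisation and with robust variance. In OA_T0 vs OA 3 rose and 3 fell, against 8.27% and 6.84% of all tested genes. Cpt1a fell by 2.57 (adjusted p = 5.56e-12) and Agpat3 fell by 0.31 (adjusted p = 0.0145), while Gpam, which starts glycerolipid synthesis, rose by 0.37 (adjusted p = 0.000847). Agpat1 and Dgat2 also rose and Crot also fell, named after their values were seen. Leaving out OA replicate 2 brought the count higher to 1, and so did leaving out OA_T0 replicate 1 or replicate 3, or the intensity trend. The count lower was 1 without the filter or the trend. In OA_T0 vs MDI 2 rose, Lpcat3 (0.87, adjusted p = 1.87e-06) and Gpam (0.29, adjusted p = 0.0208), and 2 fell, Cpt1a (-0.39, adjusted p = 0.0117) and Soat1, against 1.25% and 1.36% of all tested genes. Both falls were lost without the filter and without the trend. OA vs MDI and OA_T0 vs OA share the OA libraries, whose values do not enter the log2 differences of OA_T0 vs MDI. They do enter its p-values, through the shared spread. In OA_T0 vs MDI Crot, Agpat3, Agpat1 and Dgat2 did not pass by limma (adjusted p = 0.993, 0.297, 0.0993 and 0.508). There the count higher was 1 with equal totals, without the trend, or without MDI replicate 1, MDI replicate 2, OA_T0 replicate 1 or OA_T0 replicate 2. The count lower was 0 without OA_T0 replicate 1 and 1 without MDI replicate 1, MDI replicate 2 or OA_T0 replicate 3. The medians were 0.06, 0.00 and 0.10.

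Among enzymes around acetyl-CoA and malonyl-CoA, the products of ACSS2 and ACSF3, all calls in the fit as reported were rises. Of 13 tested genes 1 rose and 0 fell in OA vs MDI by limma, where 3.43% of all tested genes were called higher and 3.36% lower. At an unadjusted p under 0.05 limma gave 2 higher and 0 lower, with no count over all tested genes. The gene that rose was Fasn, fatty acid synthase (log2 difference 0.45, adjusted p = 0.00793). Its call was lost without MDI replicate 2, without the filter and without the intensity trend, and the count was 2 without MDI replicate 3. In OA_T0 vs OA 5 rose and 0 fell, against 8.27% and 6.84% of all tested genes. Limma gave 7 higher and 1 lower at an unadjusted p under 0.05, with no count over all tested genes. Acat2, the cytosolic thiolase, rose by 0.90 (adjusted p = 3.84e-06), Acaca, acetyl-CoA carboxylase, by 0.58 (adjusted p = 1.45e-05) and Hmgcs1, of sterol synthesis, by 0.97 (adjusted p = 0.000128). Slc25a1 and Acly were the other rises, named after their values were seen. The count lower was 1 without MDI replicate 1 or MDI replicate 3, with equal totals, with robust variance, with a minimum mean of 50 and in a fit of only the compared groups. In OA_T0 vs MDI 6 rose and 0 fell, against 1.25% and 1.36% of all tested genes, and without the intensity trend 2 rose. The smallest adjusted p were those of Acaca (0.69, adjusted p = 7.01e-06), Acat2 (0.83, adjusted p = 3.17e-05) and Fasn (0.69, adjusted p = 0.000583). The medians were 0.05, 0.16 and 0.25, beside those over all tested genes given above.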

How the data were processed

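RNA of 9 libraries was measured by poly(A) sequencing. The authors deposited 1 table of normalised signal per gene, that is counts that are not whole and that carry 1 scaling factor per library. The submitters' processing notes name CASAVA 1.8.2, TopHat, HTSeq, DESeq2 and the build mm9 without a role or order. The step between low values gave the worth of 1 fragment, and the total divided by it the estimated depth. Between 5 and 50 steps 62.3% to 68.8% of values lay within 0.05 step of a whole multiple, so whole reads were not recovered and no test for counts was run.

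Values were taken as log2(value + 1), which understates changes of low genes. The 15002 genes with a mean of at least 10 over 9 libraries were fitted in limma 3.58.1 (R 4.3.3) with 1 spread for the 3 groups, moderated along an intensity trend. Tests were two-sided, and Benjamini-Hochberg adjustment ran over all tested genes of a comparison, and an adjusted p below 0.05 was a call. Groups did not overlap when the 3 libraries of one all lay beyond those of the other. All tested genes were not counted at an unadjusted p under 0.05. Counts of members or listed genes at that threshold therefore have no background to be set against. The procedure was also run on simulated data with independent noise between libraries. The outcome is not given here and lends no weight to calls of small changes. The floor is 3 fragments, between 1.35 and 4.62 units by library, and covers counting error only. Lengths came from GENCODE M21, and promoters from RefSeq (GRCm38.p6).

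The members and the lists (other acyl-CoA synthetases, acyl-CoA binding proteins, acyltransferases, acetyl-CoA and malonyl-CoA enzymes, cell markers) were chosen with earlier results of these data known. On the acetyl-CoA and malonyl-CoA list 1 gene is not reported here and is left out of its counts and medians. The text names all members, up to 3 passing genes per list and comparison with the smallest adjusted p, and the 2 genes most like each member. Further passing genes are named where few remained, after their values were seen. Alternatives were other pseudocounts, filters, scalings, variance settings, a replicate block and left-out libraries. Reads shared with pseudogenes or overlapping genes cannot be separated in these values.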

Additional observations from a re-analysis of the deposited data

How the results depend on the processing

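Over 24 member fold changes and 20 alternatives, 0 calls were lost or reversed and 11 were gained, for 3 members (Acsf2, Acss2 and Acsl4). In 20 of 480 cases an uncalled difference near 0 had another sign. Filters, variance settings, the replicate block, fits of only the compared groups and left-out libraries of the group not compared could not move a log2 difference. They could change only its p-value, so they are no check on its size. Acsbg1 met the minimum mean of 50 only through OA, with means of 187.7 there, 34.0 in MDI and 36.9 in OA_T0. The number of members higher in OA vs MDI went from 1 to 2 with quantile normalisation, with equal totals, in a fit of only the compared groups and without both OA replicate 1 and OA_T0 replicate 3, and lay between 1 and 2 with 1 library left out. In OA_T0 vs OA it was 2 with quantile normalisation and between 1 and 2 with 1 library left out. Libraries of equal number did not deviate together across groups (correlations of -0.26 to 0.26), and 2 of 9 libraries matched their own number best, so the numbers were not used as pairs. With the replicate block the member counts were the same, at 1 higher in each comparison, and Acsbg1 in OA vs MDI had adjusted p = 1.23e-05. Over the alternatives the log2 difference of Acsbg1 lay between 2.31 and 2.53 in OA vs MDI, and that of Acsl3 between 1.16 and 1.26 in OA_T0 vs OA. Quantile normalisation and equal totals put the median of all tested genes between -0.02 and 0.00923, and all alternatives between -0.02 and 0.03.

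The counts of all tested genes moved more. In OA vs MDI 514 higher and 504 lower became 233 and 234 without a filter and 205 and 179 without the intensity trend, and ranged over 211 to 658 and 155 to 639 with 1 library left out. In OA_T0 vs OA 1240 and 1026 became 773 and 605 without the trend and 524 and 402 without both OA replicate 1 and OA_T0 replicate 3, and ranged over 580 to 1443 and 474 to 1239, with 620 lower without a filter. In OA_T0 vs MDI 188 and 204 became 72 and 38 without a filter and 51 and 15 without the trend, with 132 lower under robust variance, and ranged over 66 to 284 and 44 to 247. Among single left-out libraries the lowest counts came without MDI replicate 2 in OA vs MDI and without OA_T0 replicate 1 in the other comparisons. On the lists, counts moved by more than 1.5 times mainly where they were 3 or fewer; the exception was acetyl-CoA and malonyl-CoA enzymes in OA_T0 vs MDI, 6 higher against 2 without the trend. The causes were not tested. Depth limits Acsbg1 most among the tested members, with 25 to 211 estimated fragments, and leaves Acss1 below the floor.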
